A study of Mus musculus with 6 samples.

Results

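Notch genes were followed in mG7080 tumors, a murine GBM model, grown in the brains of WT and Esm1 KO hosts. They are 10 of the 16729 genes in the deposited table and were chosen by name as ligands, receptors and targets of one pathway: the ligands Dll1, Dll3, Jag1 and Jag2, the receptors Notch1 and Notch2, and the Hes and Hey family genes Hes1, Hes5, Hes6 and Hey1. All 10 were in the table and all 10 passed the filter on low counts. The line mG7080 is a gliomasphere culture derived from mice with mutations in tumor suppressor genes, p53 and Nf1 among them, and all hosts were C57BL/6 by the labels (C57BL/6J in the methods of the study). Esm1 encodes Endocan, a proteoglycan secreted by vascular endothelial cells. By the methods of the study the hosts were 6 to 8 weeks old, while its reporting summary gives an older range. All 6 tumors came from the same injected line. The deletion was carried by the host only, and the injected cells kept their own Esm1. RNA came from whole tumor tissue, so that transcripts of injected and of host cells were read together. Each group had 3 tumor libraries, named WT 1 to WT 3 and KO 1 to KO 3. The labels do not say whether the 3 tumors of a group came from separate litters or days, and p-values measure the spread between these libraries.

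Library totals ran from 17632070 to 22241832 counts, and 1 read was worth between 0.0441 and 0.0568 CPM (counts scaled by library size with edgeR's TMM factors). The targeted gene, Esm1 (chromosome 13 of GRCm38, 113209659 to 113218098), was counted 25, 21 and 82 times across the WT libraries but 1, 24 and 4 times across KO 1, KO 2 and KO 3. The library labelled KO 2 therefore matched WT 1 and WT 2 in its Esm1 reads and goes against its label, although the gene in the injected cells leaves this check incomplete. On the first principal component of log2 CPM, which held 89.2% of the variance, it lay at -27.55, between WT 1 (-13.52) and WT 3 (-57.24) and apart from KO 1 (74.75) and KO 3 (98.85). Every comparison is therefore given over all 6 libraries by their labels and again without the library labelled KO 2. That library was set aside by its own reads in these data, and the p-values without it do not allow for this choice. Most marker lists of other cell types and states also moved with KO 1 and KO 3, while the endothelial sums, given below, overlapped between the groups. Summed over 10 neuronal markers, the level was 2464 to 5955 CPM in the WT libraries, 13230 and 15470 CPM in KO 1 and KO 3, and 5235 CPM in the library labelled KO 2. Summed over 8 proliferation genes it was 1124 to 2082 CPM in the WT libraries, 104.2 and 22.28 CPM in KO 1 and KO 3, and 1241 CPM in the library labelled KO 2. Without the library labelled KO 2, 9 of the 10 neuronal markers were called higher and all 8 proliferation genes lower. The 8 markers each of myelinating oligodendrocytes and of astrocytes summed to 1351 to 3312 CPM and 3293 to 4246 CPM in the WT libraries, below KO 1 and KO 3 (3850 to 7454 CPM and 6092 to 6746 CPM). In the library labelled KO 2 they summed to 3181 CPM, within the WT range, and to 4636 CPM, above every WT library. Without the library labelled KO 2, 2 oligodendrocyte markers were called higher and 0 lower, and 5 astrocyte markers were called higher and 1 lower. Of all genes tested in that comparison, 24.5% were called higher and 28.3% lower, so that 2 of 8 oligodendrocyte markers is near the share of all genes. The 8 microglia and macrophage markers, of which 4 were called lower and 1 higher, summed to 611.7 to 660.8 CPM in the WT libraries against 466.5 and 437.2 CPM in KO 1 and KO 3 and 857.1 CPM in the library labelled KO 2. The 5 T cell markers in the table summed to 28.54 to 31.36 CPM in the WT libraries and 26.74 and 6.958 CPM in KO 1 and KO 3. They summed to 42.5 CPM in the library labelled KO 2, and 4 were called lower and 0 higher without it. No listed marker in the table was at 0 in any library. The part of these shifts in the results below was not tested. In bulk tissue, fewer cells of a type and less RNA of a gene per cell cannot be told apart.

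Notch receptors are single-pass membrane proteins that are cut after they bind a ligand of the Delta or Jagged family on a neighboring cell. The freed intracellular domain enters the nucleus, joins the DNA-binding protein Rbpj, and switches on repressors of the Hes and Hey families. In neural progenitors and in glioma cells the pathway is known for maintaining the undifferentiated state.

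The upstream sequences of the members were read to show which of them hold the letters that Rbpj is known to prefer, or an E-box, the kind of site that basic helix-loop-helix factors bind. Sequences are those of RefSeq on GRCm38.p6, 250 bases before each annotated start, and 10 such windows were found for 8 of the members (Hes1 and Hey1 had no entry). Both strands were searched for the Rbpj motif GTGGGAA and for the E-box CAGCTG, whose letters read the same on either strand and which shares no overlapping match with the Rbpj motif here. The Rbpj motif stood in 5.42% of all 32851 windows and the E-box in 13.0%. Among the 10 member windows the Rbpj motif stood in 1, that of Hes5, where it occurred on both strands, an arrangement present in 0.0548% of all windows. The E-box stood in 5 of the 10 windows, which belong to Dll1 (1 of its windows), Dll3, Hes6 (both of its windows) and Jag1. A match of letters is a description of the window and not a bound site. The Hes5 window (chr4:154960673-154960922, + strand) is shown because it alone carries the Rbpj letters, with 219 bases between 1 match and the start and 76 bases between the other and the start. A Dll1 window (chr17:15376933-15377182, - strand), 1 of the Hes6 windows (chr1:91414039-91414288, - strand) and 30 bases before a RefSeq start of Dll3 (chr7:28301786-28301815, - strand, within the GENCODE span of the gene) are shown as examples of the E-box. The other Dll1 window (chr17:15375824-15376073, - strand) holds neither motif. The E-box was not compared with the changes in level. Between the end of the E-box and the start lay 126 bases in Dll1, 165 in Hes6 and 1 in Dll3. Capitals mark the Rbpj motif (TTCCCAC where it lies on the opposite strand) or the E-box.
Hes5: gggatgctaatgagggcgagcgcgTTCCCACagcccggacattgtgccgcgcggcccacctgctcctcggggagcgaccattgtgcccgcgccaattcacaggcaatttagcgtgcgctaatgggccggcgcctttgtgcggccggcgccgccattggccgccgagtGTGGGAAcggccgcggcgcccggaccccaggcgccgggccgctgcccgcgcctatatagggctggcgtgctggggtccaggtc
Dll1: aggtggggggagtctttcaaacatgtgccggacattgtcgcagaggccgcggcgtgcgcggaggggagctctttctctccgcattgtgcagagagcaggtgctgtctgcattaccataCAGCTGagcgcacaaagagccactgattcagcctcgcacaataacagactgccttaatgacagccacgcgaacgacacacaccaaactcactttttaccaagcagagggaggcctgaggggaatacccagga
Hes6: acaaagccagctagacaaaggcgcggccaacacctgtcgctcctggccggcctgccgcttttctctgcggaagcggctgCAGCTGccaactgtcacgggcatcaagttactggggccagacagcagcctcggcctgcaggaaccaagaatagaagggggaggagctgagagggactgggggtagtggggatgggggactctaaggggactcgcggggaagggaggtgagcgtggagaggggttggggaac
Dll3: aaatataagactccggcatccagCAGCTGc

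Taken by their labels, all 6 libraries gave no call among the 10 genes. By edgeR's quasi-likelihood test with Benjamini-Hochberg adjustment over 16166 genes, 0 members passed an adjusted p of 0.05, beside 0% of all genes lower and 0% higher. The smallest adjusted p of any gene was 0.184. At an unadjusted p under 0.05 the same test had 1923 genes lower and 2462 higher. Of the members, 5 had an unadjusted p under 0.05. DESeq2 called 1 member, Jag2, over the same libraries, and edgeR's exact test and limma-voom called 0. Of all 16166 genes, DESeq2 called 1206 (775 higher), the exact test 105 (66 higher) and limma-voom 0. The groups nevertheless did not overlap for 6 members. Every KO library lay below every WT library for Dll1, Dll3, Jag1, Notch2 and Hes5, 5 of 10 members against a background of 14.8% of all genes tested. Every KO library lay above every WT library for Jag2, 1 of 10 members against 12.6%. Without the library labelled KO 2, 7 members fell and 1 rose in KO 1 and KO 3 at an adjusted p under 0.05 (edgeR), among 16279 genes of which 28.3% were lower and 24.5% higher. With so many genes called in this comparison, a call by itself sets no member apart. In the same 5 libraries KO 1 and KO 3 both lay below all WT libraries for 8 members and above them for 2 (Jag2 and, with TMM scaling but not in FPKM, Hey1), whereas 40.3% and 37.2% of all genes tested did so. The median log2 fold change of the 10 members, KO minus WT, was -0.90 over all 6 libraries and -1.32 without KO 2, beside medians of -0.022 and -0.02 over all genes tested. Because the members were chosen with earlier results of these data known, these shares and medians describe the 10 genes and are no test of the set.

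**Figure D1:**
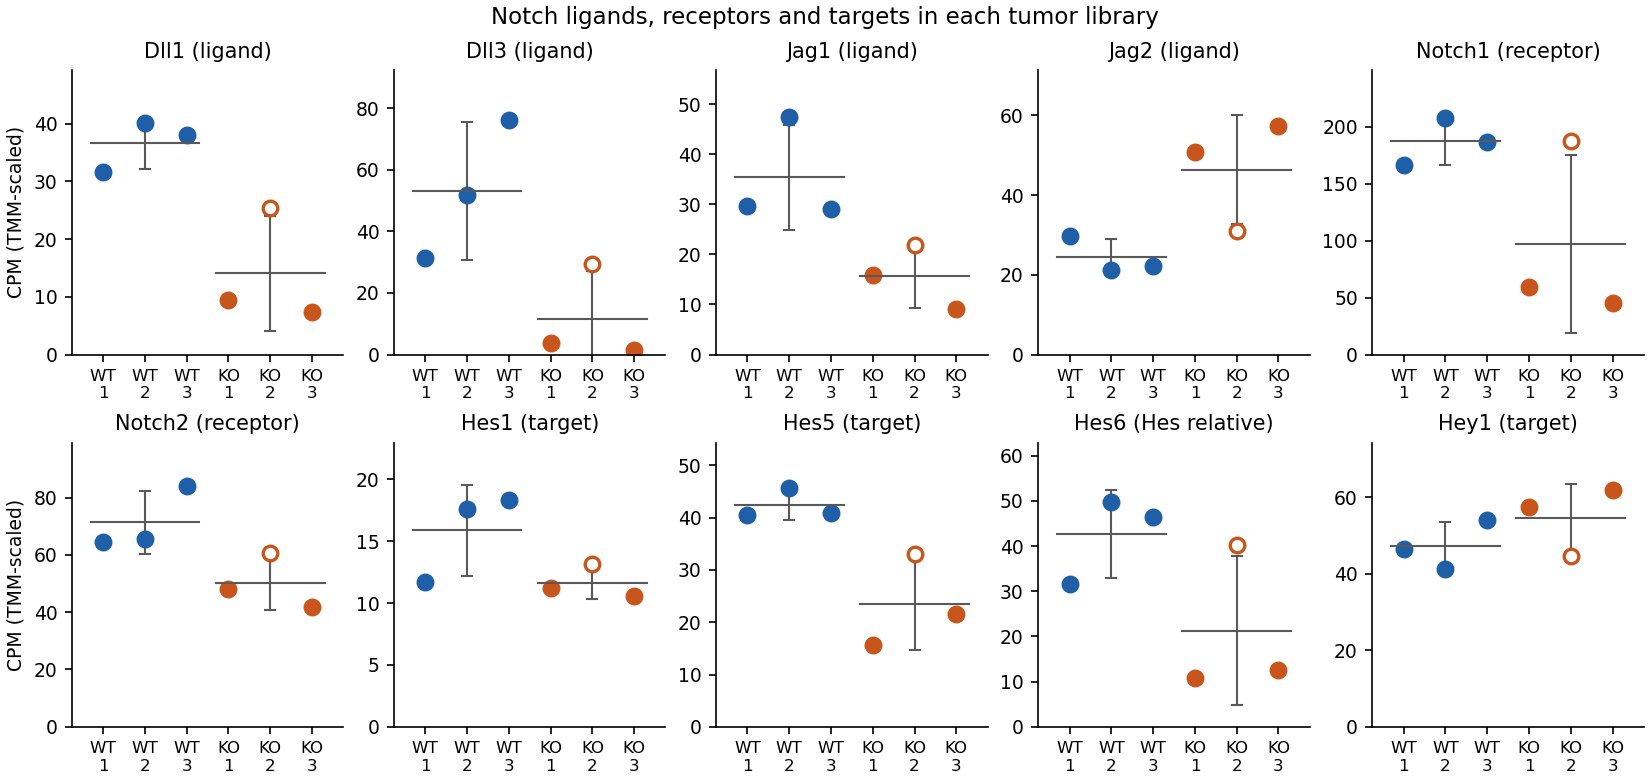
TMM-scaled CPM of the 10 Notch genes in each library, 1 panel per gene with its own axis from 0; blue points are WT libraries, filled orange points KO 1 and KO 3, the open orange point the library labelled KO 2, and lines with bars the mean and SD of the 3 libraries of each group. KO 1 and KO 3 lie below the WT libraries in 8 panels and above them for Jag2 and, on this scale but not in FPKM, for Hey1, and the open point lies within the WT range for Notch1, Hes1, Hes6 and Hey1.

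Of the ligands, Dll1, Dll3 and Jag1 were lower and Jag2 was higher in KO 1 and KO 3. Without KO 2, Dll3 had the largest fold change of the 10 genes. It encodes a divergent Delta protein that is known to act inside the producing cell and to dampen Notch signaling there, and it lies on chromosome 7 (28293553 to 28302238, - strand). Its level was 31.27, 51.77 and 76.24 CPM across WT 1 to WT 3, whereas KO 1, KO 2 and KO 3 had 3.577, 29.49 and 1.558 CPM. The WT libraries differed among themselves by 2.44-fold, more than for any other member, and the library labelled KO 2 lay just under the lowest of them. Mean levels were 53.1 ± 22.5 CPM in WT and 11.5 ± 15.6 CPM in KO hosts (SD, n = 3 each). The 2 low libraries rested on 63 counts (95% exact counting interval 48.4 to 80.6) and 30 counts (20.2 to 42.8), where WT 1 had 664, and these intervals cover counting error only. The log2 fold change was -2.20 (SE 1.08, adjusted p = 0.205, edgeR) over all 6 libraries. Without KO 2 it was -4.35 (SE 0.56, adjusted p = 0.00798, edgeR), and the mean of the WT libraries was 20.7 times that of KO 1 and KO 3.

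Dll1, a Delta ligand that activates receptors on neighboring cells, lies on chromosome 17 (15367354 to 15376872, - strand). It stood at 31.64, 40.03 and 38.07 CPM in the WT libraries and at 9.368, 25.44 and 7.374 CPM in KO 1, KO 2 and KO 3. The groups did not overlap, and KO 2 was nearer to the WT libraries than to the other KO libraries. Its log2 fold change was -1.38 (SE 0.49, adjusted p = 0.184, edgeR) over all 6 libraries and -2.11 (SE 0.19, adjusted p = 0.00798) without KO 2. An annotated antisense RNA, A930024N18Rik, shares 1873 bases with the Dll1 locus and is not in the table. Whether counting used strand is not given in the sources used here, so that reads of the pair cannot be told apart.

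The Jagged ligands moved in opposite directions. Jag1, an activating ligand known from blood vessels and from glioma cells (chromosome 2, 137081456 to 137116644, - strand), had 29.62, 47.43 and 28.99 CPM in the WT libraries. KO 1, KO 2 and KO 3 had 15.78, 21.95 and 9.139 CPM of Jag1, each below every WT library. Jag2, its closest relative (chromosome 12, 112907819 to 112929776, - strand), had 29.62, 21.15 and 22.29 CPM in the WT libraries. In KO 1, KO 2 and KO 3 Jag2 was at 50.81, 31.03 and 57.22 CPM, each above every WT library, although KO 2 exceeded WT 1 by little. WT 1 held 629 counts of either gene. Over all 6 libraries the log2 fold changes were -1.18 for Jag1 (SE 0.37) and 0.93 for Jag2 (SE 0.27), both with an adjusted p of 0.184 (edgeR). Without KO 2 they were -1.48 for Jag1 (SE 0.33, adjusted p = 0.0177) and 1.16 for Jag2 (SE 0.19, adjusted p = 0.0101). Jag2 was the only member that rose in that comparison.

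**Figure D2:**
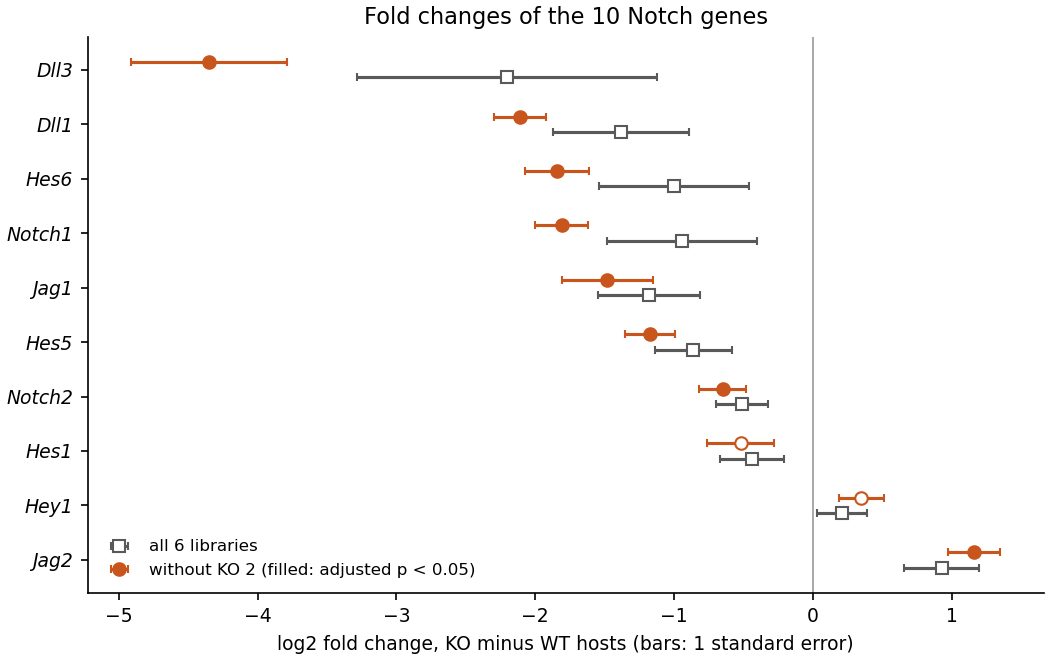
Log2 fold change (KO minus WT hosts) of each Notch gene with bars of 1 standard error, from edgeR over all 6 libraries (gray squares) and without the library labelled KO 2 (orange circles, filled where adjusted p was under 0.05). Values without KO 2 run from -4.35 for Dll3 to 1.16 for Jag2, and each lies farther from 0 than its value over all 6 libraries.

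Both receptors were lower in KO 1 and KO 3, and the difference between their fold changes was not tested. Notch1 (chromosome 2, 26457903 to 26516663, - strand), the receptor with the most reads, had 166.6, 207.5 and 186.9 CPM in the WT libraries. In KO 1 and KO 3 it had 59.67 and 45.18 CPM, and in the library labelled KO 2 it had 187.1 CPM, which is close to the WT mean of 187 ± 20.5 CPM (SD, n = 3). The groups overlapped by that library alone. The log2 fold change was -0.94 (SE 0.54, adjusted p = 0.25, edgeR) with all 6 libraries and -1.81 (SE 0.19, adjusted p = 0.00798) without KO 2. Notch2 (chromosome 3, 98013527 to 98150361, + strand), the second receptor of neural tissue and also expressed outside it, had 64.41, 65.57 and 84.08 CPM in the WT libraries. KO 1, KO 2 and KO 3 had 47.92, 60.7 and 41.91 CPM of Notch2, so that KO 2 fell just short of the lowest WT library. Its log2 fold change was -0.51 (SE 0.19, adjusted p = 0.184, edgeR) over all 6 libraries. Without KO 2 it was -0.65 (SE 0.17, adjusted p = 0.0253), but that call did not survive the loss of WT 3 (-0.53, adjusted p = 0.0749), of KO 1 (-0.75, adjusted p = 0.0798) or of KO 3 (-0.55, adjusted p = 0.151). Annotated antisense RNAs overlap 1488 and 414 bases at the end of Notch1, and neither is in the table.

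Of the Hes and Hey genes, Hes5 and Hes6 were lower in KO 1 and KO 3, while Hes1 and Hey1 did not pass in either comparison. Hes5 encodes a repressor that is a direct Notch target in neural stem cells and lies on chromosome 4 (154960923 to 154962371, + strand). It had 40.59, 45.74 and 40.95 CPM in the WT libraries, the tightest WT values of any member, and 15.67, 33.02 and 21.6 CPM in KO 1, KO 2 and KO 3. All KO libraries lay below all WT libraries. The log2 fold change was -0.86 (SE 0.28, adjusted p = 0.184, edgeR) over all 6 libraries and -1.17 (SE 0.18, adjusted p = 0.00903) without KO 2. The locus shares 756 bases with the antisense RNA Gm20421, which is not in the table.

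Hes6 (chromosome 1, 91411483 to 91414038, - strand) is a Hes relative that is not itself a Notch target and is known to oppose Hes1. Its level was 31.64, 49.86 and 46.46 CPM in the WT libraries and 10.9, 40.25 and 12.62 CPM in KO 1, KO 2 and KO 3. Here too KO 2 fell between the lowest and the highest WT library. The log2 fold change by the labels was -1.0 (SE 0.54, adjusted p = 0.228, edgeR), and without KO 2 it was -1.84 (SE 0.23, adjusted p = 0.00798).

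Hes1 (chromosome 16, 30064384 to 30067796, + strand), the most widely used Notch target, had 11.68, 17.61 and 18.32 CPM in the WT libraries and 11.18, 13.18 and 10.59 CPM in KO 1, KO 2 and KO 3. WT 1 lay close to the KO libraries. The log2 fold change without KO 2 was -0.52 (SE 0.24, adjusted p = 0.112, edgeR) and passed only without WT 1 (-0.70, adjusted p = 0.0102) and with scaling to total counts (-0.79, adjusted p = 0.0483) among the 14 alternatives. Over all 6 libraries it was -0.44 (SE 0.23, adjusted p = 0.222). Hey1 (chromosome 3, 8663359 to 8667256, - strand), a target also used in blood vessels, had 46.43, 41.19 and 53.95 CPM in the WT libraries and 57.29, 44.74 and 61.79 CPM in KO 1, KO 2 and KO 3. KO 1 and KO 3 lay above the WT libraries by little with TMM scaling, whereas in the deposited FPKM (23.78 and 24.26) they lay within the WT range (20.04 to 26.02). Its log2 fold change was 0.21 (SE 0.18, adjusted p = 0.396, edgeR) over all 6 libraries and 0.35 (SE 0.16, adjusted p = 0.102) without KO 2. Neither miss shows that these genes were alike in the groups. For each of the 8 genes called without KO 2, the call was also lost when KO 3 was left out as well, with an adjusted p between 0.0686 and 0.151 and a group of KO 1 alone, assumed to vary like the WT libraries.

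Levels of different genes were compared per transcript length with the deposited FPKM (fragments per kilobase of transcript, scaled to library size). In the WT libraries Hes5 ranked first with a mean of 35.3 FPKM (33.06 to 38.54 over the 3 libraries), followed by Hes6 (33.9 FPKM), Dll3 (26.04 FPKM), Hey1 (22.6 FPKM) and Notch1 (20.9 FPKM). Neighbors among these 5 overlapped in their ranges. Hes1 (11.6 FPKM) and Dll1 (11.3 FPKM) came next and overlapped with each other but not with Notch1 above. Notch2 (7.19 FPKM), Jag1 (6.82 FPKM) and Jag2 (6.34 FPKM) came last with overlapping ranges, below Dll1. Per length, Dll1 and Dll3 therefore exceeded Jag1 and Jag2 in the WT libraries. In KO 1 and KO 3 the order was another. Hey1 came first at 24.0 FPKM, then Hes5 (13.0 FPKM) and Jag2 (11.9 FPKM), which overlapped. Dll3 came last at 1.07 FPKM, with a range that overlapped that of Jag1 (2.04 FPKM). Hes6 (7.83 FPKM), Hes1 (6.69 FPKM), Notch1 (4.94 FPKM), Notch2 (3.81 FPKM) and Dll1 (2.18 FPKM) stood between them. Jag2, last in the WT libraries, was the highest of the 4 ligands in KO 1 and KO 3.

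Ratios between members of one family were then taken within each library, which removes the scaling of the library. They are log2 ratios of FPKM and were not tested. The ratio of Jag1 to Jag2 differed most between the groups. It was -0.44, 0.73 and -0.06 in the WT libraries and -2.13, -0.94 and -3.08 in KO 1, KO 2 and KO 3. The groups did not overlap, and the mean was 0.08 ± 0.59 in WT and -2.05 ± 1.08 in KO hosts (SD, n = 3 each). The ratio of Dll3 to Dll1 was 0.65, 1.04 and 1.67 in the WT libraries. In KO 1 and KO 3 it was -0.72 and -1.58, and in the library labelled KO 2, at 0.88, it was within the WT range. Dll3 was thus above Dll1 in each WT library and below it in KO 1 and KO 3. The ratio of Notch1 to Notch2 was 1.52, 1.81 and 1.30 in the WT libraries against 0.46 and 0.26 in KO 1 and KO 3, with 1.77 in the library labelled KO 2. Relative to Hes1, Hes6 was nearly constant in the WT libraries (1.56, 1.62 and 1.46) and lower in KO 1 (0.08) and KO 3 (0.37), with 1.73 in the library labelled KO 2. Hey1 relative to Hes1 went the other way, from a WT mean of 0.99 ± 0.38 to 1.75 and 1.94 in KO 1 and KO 3 and 1.16 in the library labelled KO 2. Hes5 relative to Hes1 differed least, with 1.99, 1.57 and 1.35 in the WT libraries, 0.68 and 1.22 in KO 1 and KO 3, and 1.51 in the library labelled KO 2.

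**Figure D3:**
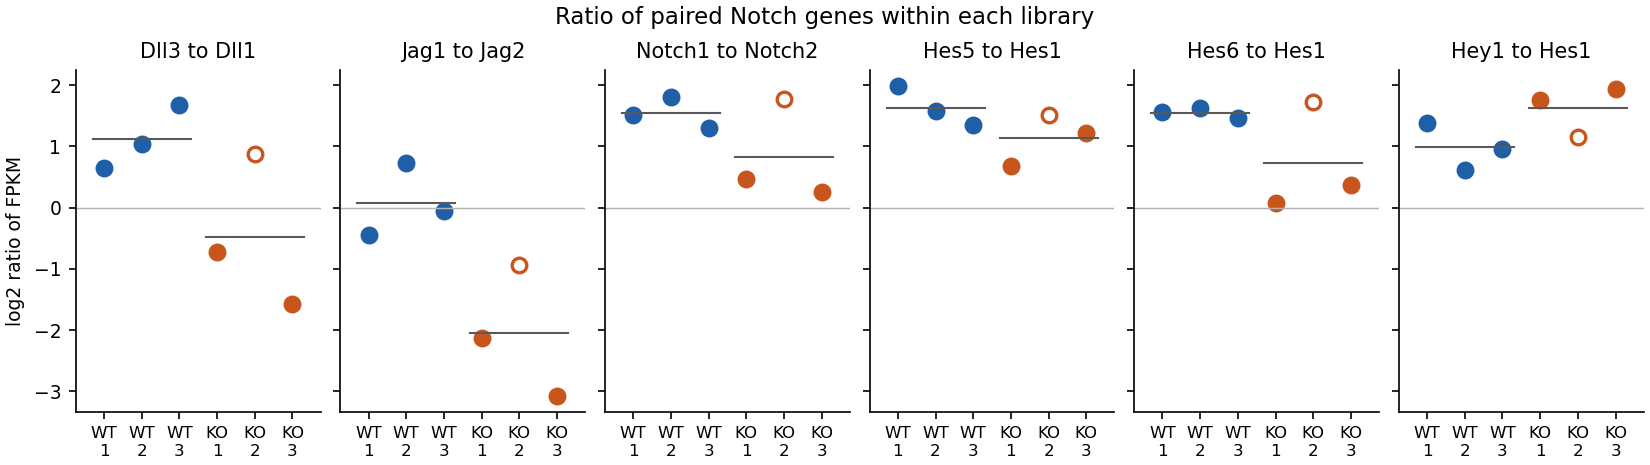
Log2 ratio of the FPKM of paired Notch genes within each library; blue points are WT libraries, filled orange points KO 1 and KO 3, open orange points the library labelled KO 2, and horizontal lines the mean of the 3 libraries of a group. The ratio of Jag1 to Jag2 separates the groups in all 6 libraries, whereas for Dll3 to Dll1, Notch1 to Notch2 and Hes6 to Hes1 the open point sits with the WT libraries.

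The rest of the pathway was read from a list of 59 genes by role, of which 53 were in the table and 52 were tested. Over all 6 libraries 0 of the 52 passed an adjusted p of 0.05 (edgeR), 7 were called by DESeq2 and 2 by edgeR's exact test, all of them higher. Of all 16166 genes, DESeq2 called 775 higher and 431 lower, and the exact test 66 higher and 39 lower. Without KO 2, 15 of the 52 were lower, 15 were higher and 22 did not pass, with a median log2 fold change of -0.12. Of all genes tested in that comparison, 28.3% were lower and 24.5% higher. Fold changes and counts of called genes in the following are without KO 2, by edgeR. The lists by role are short, and no role was tested as a set.

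Among 6 other ligands and receptors, 1 fell and 2 rose, beside 28.3% of all genes tested lower and 24.5% higher. Notch3, the receptor of mural cells, had a log2 fold change of -1.11 (adjusted p = 0.0282), with 39.51, 56.63 and 66.02 CPM in the WT libraries and 30.89, 33.59 and 18.59 CPM in KO 1, KO 2 and KO 3. Summed over 8 mural markers, a list that includes Notch3, the level was 314.2 to 418.5 CPM in the WT libraries. In KO 1, KO 2 and KO 3 the sum was 200.8, 427.5 and 139.7 CPM. The part of that shift in Notch3 was not tested. Without KO 2, 2 of the 8 mural markers were called lower and 1 higher, beside 28.3% and 24.5% of all genes tested. The non-canonical ligand genes Dlk2 (1.70, adjusted p = 0.0106) and Dner (1.29, adjusted p = 0.0378), of which Dner is known from neurons, rose. Of the endothelial Dll4 the log2 fold change was -0.11 (adjusted p = 0.842). Notch4 (-0.29) and Dlk1 (-0.45) did not pass either. The endothelial markers summed to 141.7 to 182 CPM in the WT libraries and to 195.5, 165.4 and 144.2 CPM in KO 1, KO 2 and KO 3. Without KO 2, 2 of these 8 markers were called higher and 0 lower, and 2 of 8 is near the 24.5% of all genes called higher.

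Genes that modify ligands and receptors split, with 3 of 9 lower and 4 higher, beside 28.3% and 24.5% of all genes tested. The lower ones were Pofut1 (-0.63), which adds fucose to the receptors, and the Fringe glycosyltransferases Lfng (-0.61) and Mfng (-2.72, adjusted p = 0.00798). Mfng had 17.56, 27.39 and 27.3 CPM in the WT libraries and 4.485, 17.63 and 2.7 CPM in KO 1, KO 2 and KO 3. Another Fringe gene, Rfng, rose (0.36), as did Mib2 (1.0) and the ubiquitin ligase genes Neurl1a (1.91, adjusted p = 0.00914) and Neurl1b (1.59, adjusted p = 0.00992). Mib1, the main ligase of ligand uptake, did not pass (0.21, adjusted p = 0.189), and neither did Poglut1 (-0.24). Among the genes for receptor cleavage, the protease gene Adam17 (-1.72, adjusted p = 0.00798) and the gamma-secretase subunit gene Aph1a (-0.60) fell, and the related Aph1c (1.04) rose. Adam10, the protease that makes the ligand-dependent cut, had a log2 fold change of -0.19 (adjusted p = 0.292).

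In the nuclear complex, 4 of 10 genes were lower and 1 higher, beside 28.3% and 24.5% of all genes tested. Rbpj, the DNA-binding partner of all Notch receptors, fell (-0.65, adjusted p = 0.0151), with 45.63, 52.56 and 51.92 CPM in the WT libraries and 33.55, 50.3 and 29.55 CPM in KO 1, KO 2 and KO 3. The coactivator genes Maml1 (-1.22, adjusted p = 0.00875) and Maml2 (-2.18, adjusted p = 0.00798) fell, whereas Maml3 did not pass (-0.33, adjusted p = 0.228). Snw1 (-0.65) was also lower and the co-repressor gene Cir1 (0.48) higher. Over all 6 libraries the log2 fold changes in this list ran from -1.31 (Maml2) to 0.34 (Cir1).

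Of 9 attenuators of the pathway, 5 rose and 2 fell, beside 24.5% of all genes tested higher and 28.3% lower. Fbxw7, which marks the cleaved receptor for degradation, had 116.5, 69.85 and 93.86 CPM in the WT libraries and 255.5, 111.5 and 338.8 CPM in KO 1, KO 2 and KO 3 (1.68, adjusted p = 0.00938). Numb (0.79), Numbl (1.10), Dtx1 (1.16) and Dtx3 (0.81) also rose. The lower genes were Dtx2 (-0.82) and Nrarp (-1.16, adjusted p = 0.011). Nrarp, itself a direct Notch target, had 42.71, 63.24 and 63.09 CPM in the WT libraries and 25.78, 42.05 and 23.94 CPM in KO 1, KO 2 and KO 3. The other Hes and Hey genes in the table gave no call, with log2 fold changes of 0.44 (Hes7), -0.04 (Hey2) and 0.80 (Heyl, adjusted p = 0.0928), and Helt was under the filter.

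The Id genes, dominant-negative inhibitors of basic helix-loop-helix factors, went both ways. Id3 fell (-1.20, adjusted p = 0.00987), Id2 (0.87, adjusted p = 0.0136) and Id4 (1.29, adjusted p = 0.0294) rose, and Id1 (0.10) did not pass.

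**Figure D4:**
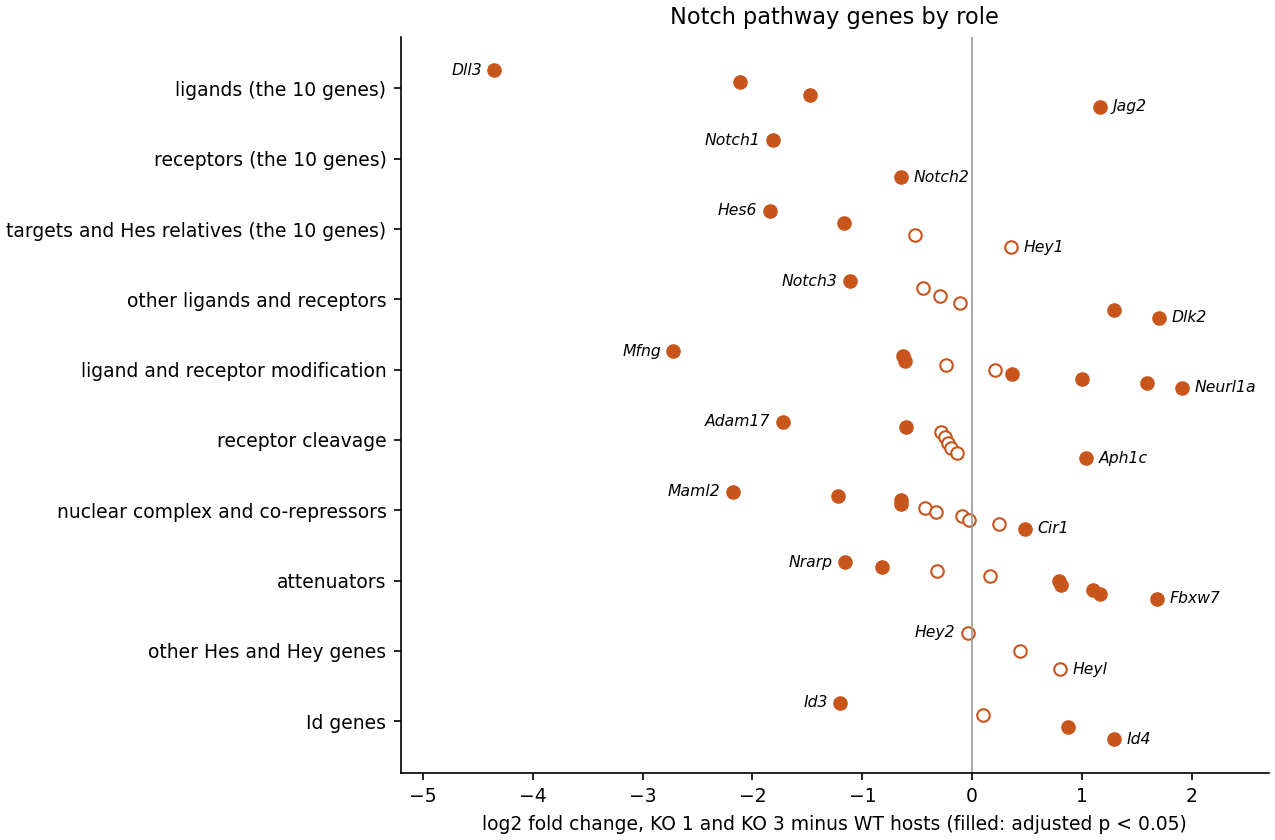
Log2 fold change (KO 1 and KO 3 minus the 3 WT libraries, edgeR) of the 10 Notch genes and of other pathway genes, 1 row per role, with 1 point per gene, filled where adjusted p was under 0.05 and named at the ends of each row. Called genes lie on both sides of 0, from Mfng (-2.72) to Neurl1a (1.91) among the other pathway genes.

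The genes whose pattern over the 6 libraries was nearest to each member were found among 13021 genes with a mean of at least 5 CPM, by the root mean square difference of centered log2 CPM. Nearest to Dll1 were Lrig1 (0.085) and Smco4 (0.092), and nearest to Dll3 were Pou4f1 (0.184) and Sapcd2 (0.204). For Jag1 they were Cecr2 (0.141) and Nthl1 (0.145), and for Jag2 Gpr137 (0.04) and Bcl2l2 (0.041). Notch1 was closest to Tmem140 (0.041) and Mdc1 (0.057), and Notch2 to Nt5dc1 (0.041) and Itgb8 (0.07). Hes1 was closest to Rccd1 (0.033), Hes6 to Prdx4 (0.064) and Herc6 (0.076), and Hey1 to Brf2 (0.055) and Cdk5 (0.058). Hes5 had as its closest gene Id3 (0.073), a member of the Id list above, and then Parp1 (0.088). These distances grow with a member's own spread over the libraries, which ran from an SD of 0.23 (Hey1) to 2.11 (Dll3) on the log2 scale, and members are not ranked by them. The split between KO 1 and KO 3 and the other 4 libraries enters each of these values.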

How the data were processed

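RNA was extracted with TRIzol from 6 mG7080 tumors, 3 per host group. The labels name the NEBNext Ultra kit, CASAVA 1.8.2, edgeR and mm10, whereas the methods of the study name an Ovation Ultralow kit, HTSeq and hg38. Only uniquely mapped reads were kept. The authors deposited raw counts of reads per gene, without normalization, and FPKM computed per gene and library. No gene in the table is counted in fewer than 4 libraries, and the highest count of each is 5 or more. Normalized values and the authors' own fold changes and p-values (9 per-sample columns unused, 6 of them normalized) were not used here.

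Counts were filtered with filterByExpr (minimum count 10, total 15), scaled with TMM and tested with glmQLFTest in edgeR 4.0.16 (R 4.3.3) with Benjamini-Hochberg adjustment, and SE is the fold change over the square root of F. A gene was called at an adjusted p under 0.05. The fit was tested on simulated data. Their spread was taken from the WT libraries, so the spread among the KO libraries was not simulated. Alternatives were RLE, upper quartile and total-count scaling, other filters, DESeq2 1.42.0, edgeR's exact test, limma-voom (limma 3.58.1), a fold threshold of 4, left-out libraries, the replicate number as a block, and the 4 libraries WT 1, WT 2, KO 1 and KO 3. Ratios planned on counts are given per length, which shifts each pair by a constant.

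Members and gene lists were chosen with earlier results of these data known. Named were all members, Esm1, the extremes and called genes of each pathway list, and the 2 genes nearest to each member (log2 CPM with 0.5 added). Some genes that this rule names are not reported here. Positions are from GENCODE vM21 (GRCm38) and promoters from RefSeq. Intervals and depth cover counting error only. Figures used Python 3.11.15 and matplotlib 3.10.9.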

Additional observations from a re-analysis of the deposited data

How the results depend on the processing

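No member changed direction under any alternative. Over all 6 libraries, where the main count of called genes is 0, DESeq2 called 1206 genes (431 lower, 775 higher) and 1 member, edgeR's exact test 105 (39 and 66) and 0 members, and the 4 libraries WT 1, WT 2, KO 1 and KO 3 gave 2708 (2244 and 464) and 7 members. Leaving out each library in turn gave 0 to 8594 genes and 0 to 8 members, with every call coming from leaving out KO 2. RLE, upper quartile and total-count scaling, other filters, limma-voom and the fold threshold of 4 gave 0. Same-numbered WT and KO libraries deviated from their group means with correlations of 0.68, 0.69 and -0.31 over 13031 genes. For differently numbered libraries the correlations ran from -0.73 (WT 1 and KO 2) to 0.64 (WT 1 and KO 3). The numbers were therefore not taken to pair the tumors. With the replicate block 0 genes and 0 members were called. Without KO 2, 8594 genes and 8 members were called. An added fold change above 4 left 1463 genes (1218 and 245) and 2 members, Dll1 and Dll3, both lower. Leaving out a further library gave 0 to 10727 genes and 0 to 9 members. The lowest values are without KO 3 (0 genes, 0 members), then without KO 1 (1865 and 7) and without WT 3 (2708 and 7). The cause was not tested. Scaling to total counts shifted the median of all genes to -0.29 without KO 2 (-0.17 over all 6), and its 8540 calls split into 6014 lower and 2526 higher, against 4608 and 3986 with TMM. Each of the 10 members lay on the same side of that median as with TMM. Of 140 fold changes of members without KO 2, 122 stayed on their side of the threshold, 16 lost a call and 2 gained one. For the other pathway genes the 30 calls without KO 2 became 11 without WT 3, 7 without KO 1 and 0 without KO 3. Dll3 in KO 3 rests on 30 counts, the shallowest value of any member.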
